A study of Rattus norvegicus with 8 samples.

Results

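The mitogen-activated protein kinase (MAP kinase) cascade was examined through 9 genes: the JNK genes Mapk8, Mapk9 and Mapk10, the ERK gene Mapk3, the p38 gene Mapk14, the upstream kinases Map2k1, Map2k2 and Map3k1, and the ERK phosphatase Dusp6. A probe set belonged to the group when the platform's annotation gave it 1 of these symbols and no other. This rule found 21 probe sets for 7 of the 9 genes, out of 8740 probe sets that were not array controls. Mapk3 and Mapk10 had 0 such probe sets, so no value is given for either. The genes were selected on their pathway and on earlier readings of the same 8 arrays, with differences between the groups already known. Levels and differences of these genes are therefore given as a description. Counts of them from a fit over all probe sets are set beside the share of all probe sets, and nothing is read from them as a test.

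The arrays measured total RNA from whole rat brain, 1 array per sample, and the labels state that all rats were intubated. The 3 control samples came from rats that breathed isoflurane, a volatile anaesthetic, for 3 min and were perfused at once with cold saline. The 2 samples of the 1 hr group and the 3 samples of the 2 hr group came from rats that received 2% isoflurane over those times. The labels name a perfusion only for the controls, give neither strain, sex nor age, and number the samples without an animal identifier. Every group was thus exposed to isoflurane and to intubation, and spread within a group may be partly technical.

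MAP kinase cascades pass a signal along kinases in tiers, in which a MAP3K phosphorylates a MAP2K and the MAP2K phosphorylates a MAP kinase. The ERK branch runs through Map2k1 and Map2k2 and couples growth factor and synaptic signals to transcription in neurons, while the JNK and p38 branches respond to cellular stress and cytokines. Dual-specificity phosphatases such as Dusp6 switch MAP kinases off again. Activity in these cascades is set mainly by phosphorylation, which transcript arrays do not measure.

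Over the arrays, the summed intensity of 4 measured neuron markers lay between 1436 and 3474. That of 4 oligodendrocyte markers lay between 4911 and 10580. Single markers differed in level, and among the neuron markers Syp read 676.2 to 1278.1 and Syt1 15.6 to 68.5. Control replicate 3 had the lowest neuron sum, 1436, against 3452 and 3474 on the other controls. It also had the lowest astrocyte sum, 1776, against 6279 and 3939 on the other controls. The lowest oligodendrocyte sum was on 2 hr replicate 2. The part of these levels in the differences below was not tested. Control replicate 3, 1 hr replicate 1 and 2 hr replicate 3 had highest intensities of 23009 to 37712, against 3504 to 12445 on the other arrays. The array's 5S ribosomal RNA probe set read 12.9 to 23.7 on control replicates 1 and 2 and 2 hr replicate 1, against 70.4 to 141.7 on the others. Values at or under the background floor made up 15% of probe sets on 1 hr replicate 1 and 18.8% to 22.2% on the other arrays. In whole brain, fewer cells of a type and less RNA per cell cannot be told apart.

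Intensities are the deposited linear values, and a value at or under 9.1, the 20th percentile of all values, is called near background. Of the 168 readings of the cascade, 11 were near background, and these fell on 4 probe sets: 5 readings on that of Mapk8, 3 and 1 on 2 probe sets of Mapk14, and 2 on 1 probe set of Map3k1. All 21 probe sets passed the filter, which asked for readings above this floor on at least 2 arrays. Log2 values and differences below were computed after values under the floor were raised to it.

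**Figure D1:**
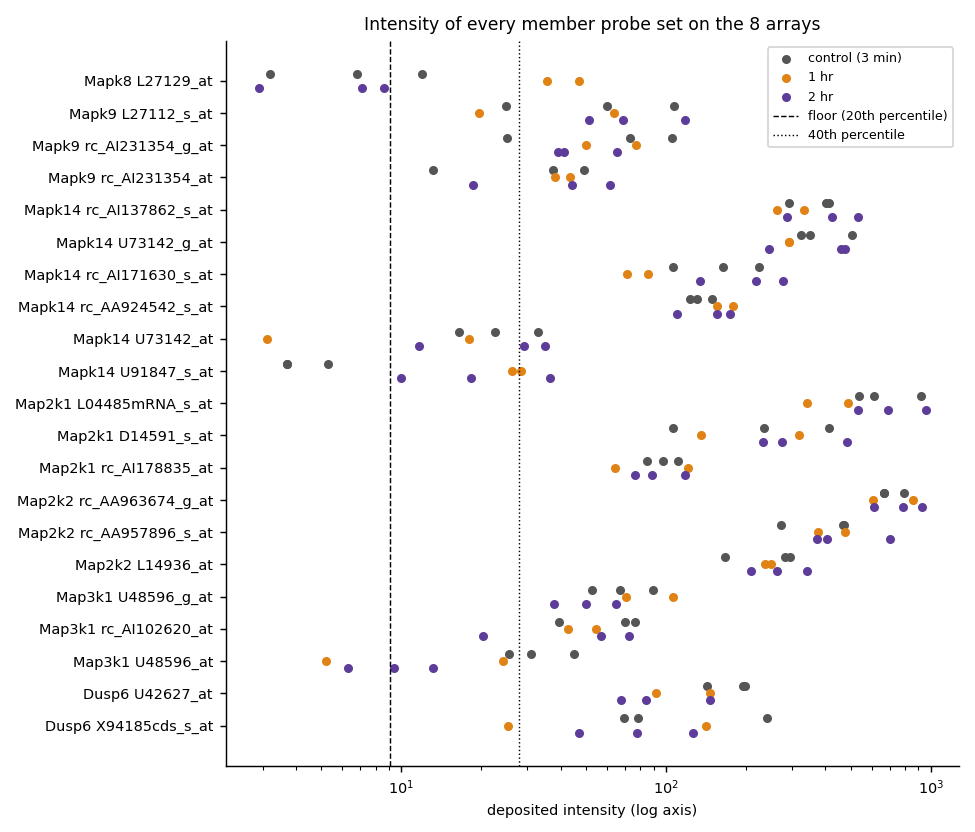
Deposited intensity (log axis) of each of the 21 cascade probe sets on the 8 arrays, coloured by group, with dashed and dotted lines at the 20th and 40th percentiles of all values (9.1 and 27.9). Readings of Mapk8 lie near the dashed line except on the 2 arrays of the 1 hr group, whereas those of Map2k1 and Map2k2 lie above both lines on every array.

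Mapk8 encodes JNK1, a stress-activated kinase that phosphorylates the transcription factor Jun. Its single probe set (L27129_at) read 6.8, 3.2 and 12.0 in the controls, 46.8 and 35.4 after 1 hr, and 2.9, 8.6 and 7.1 after 2 hr. Both 1 hr arrays were above all the others, and the control and 2 hr arrays overlapped, with 5 of these 6 readings near background. On the floored log2 scale the means were 3.32 ± 0.23 (SD, n = 3), 5.35 ± 0.28 (SD, n = 2) and 3.19 (all 3 arrays at the floor). The fitted difference between 1 hr and control was 2.03 (SE 0.31). Since every 2 hr array was at the floor, the 1 hr group was at least 4.47-fold brighter than the 2 hr group. The size of the 1 hr difference followed the floor: it was 2.67 with the floor at 2.4, 1.30 with a pseudocount of 16 in place of a floor, and 0.54 with the floor at 27.9.

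Within the arrays of highest top values the 1 hr difference of Mapk8 was 1.96 (1 array against 1 control). Within the others it was at least 1.96 (1 array against 2 controls), a bound set by the floor, at which both of these controls lay. Both 1 hr arrays had the higher 5S reading, and within arrays of that kind the difference was 1.76 (2 arrays against 1 control). The summed intensity of 3 of 5 endothelial markers also stood highest after 1 hr, at 180 and 216.3 against 126.8 to 163.1 in the controls and 127.9 to 168.4 after 2 hr. That of 5 of 5 pituitary markers was 281.4 and 498.2 after 1 hr against 232.6 to 242.6 in the controls, but 229.5, 849.7 and 227.5 after 2 hr, so 2 hr replicate 2 exceeded both 1 hr arrays. The endothelial sum was led by Flt1, at 64 to 155.3. Mean log2 of the endothelial probe sets was 5.41 and 5.38 after 1 hr, against 5.15 to 5.28 in the controls and 4.99 to 5.31 after 2 hr. The choroid plexus sum was 474.9 and 3692 after 1 hr, against 364.8 to 694.6 in the controls and 294.3 to 1229 after 2 hr. Of these markers 1 pituitary marker was near background on 3 arrays and 1 endothelial marker on 2. Their part in the Mapk8 reading was not tested.

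A further JNK probe set, L27128_at, is annotated to both Mapk8 and Mapk10 and was attributed to neither. It read 233.6, 196.6 and 65.4 in the controls, 82.0 and 152.7 after 1 hr, and 130.7, 107.1 and 118.5 after 2 hr. The 3 groups overlapped, with a log2 difference of -0.37 (SE 0.53) at 1 hr and -0.29 (SE 0.48) at 2 hr. The high 1 hr reading of L27129_at was not seen on this probe set. Its signal cannot be divided between Mapk8 and Mapk10, so it is no check of L27129_at.

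The sequences before the annotated starts of Mapk8 and Map3k1 are shown because these genes had the largest fitted differences of the cascade, at 1 hr and at 2 hr. They are the 250 bases upstream on assembly GRCr8 from RefSeq, at chr16:8728226-8728475 and chr2:45148019-45148268, both on the minus strand and written 5′ to 3′. Capitals mark matches on either strand to the cyclic AMP response element half-site TGACG or to the AP-1 site TGANTCA, the motif bound by Fos and Jun.
Mapk8: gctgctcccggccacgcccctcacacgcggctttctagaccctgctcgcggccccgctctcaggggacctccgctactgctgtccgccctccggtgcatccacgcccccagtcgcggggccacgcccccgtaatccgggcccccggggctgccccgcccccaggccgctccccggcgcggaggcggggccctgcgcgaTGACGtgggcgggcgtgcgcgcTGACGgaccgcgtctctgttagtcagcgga
Map3k1: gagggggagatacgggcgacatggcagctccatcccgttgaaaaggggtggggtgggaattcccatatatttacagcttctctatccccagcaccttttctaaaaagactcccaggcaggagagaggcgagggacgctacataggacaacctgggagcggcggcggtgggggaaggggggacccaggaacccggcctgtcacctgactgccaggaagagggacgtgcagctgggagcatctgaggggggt
The Mapk8 window held 2 half-sites, 52 and 30 bases before the start, and 0 AP-1 sites, and the Map3k1 window held 0 of either. Of the 33469 promoters of the table, 18.2% held the half-site, which also lies within the full element TGACGTCA (1.59%), and 6.34% held the AP-1 site. Of the 9 genes 7 matched the table, and 3 of these (Mapk8, Mapk10 and Map2k2) held a half-site. These matches describe the letters only, and the arrays did not measure binding.

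Mapk9 encodes JNK2, the close relative of JNK1. Its 3 probe sets (L27112_s_at, rc_AI231354_g_at and rc_AI231354_at) read between 13.2 and 118.5, and the 3 groups overlapped on each. Probe set L27112_s_at read 107.2, 60.1 and 24.8 in the controls, 19.6 and 63.4 after 1 hr, and 118.5, 68.8 and 51.1 after 2 hr. Control replicate 3 and 1 hr replicate 1 were the lowest. At 1 hr the log2 differences of the 3 probe sets, in that order, were -0.62 (SE 0.72), 0.10 (SE 0.62) and 0.49 (SE 0.69), and at 2 hr they were 0.46 (SE 0.64), -0.29 (SE 0.55) and 0.35 (SE 0.62). No direction was shared by the 3 probe sets in either comparison. Without control replicate 3 the 2 hr differences of L27112_s_at and rc_AI231354_at turned to -0.10 and -0.21, and without 1 hr replicate 1 the 1 hr difference of L27112_s_at turned to 0.22.

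**Figure D2:**
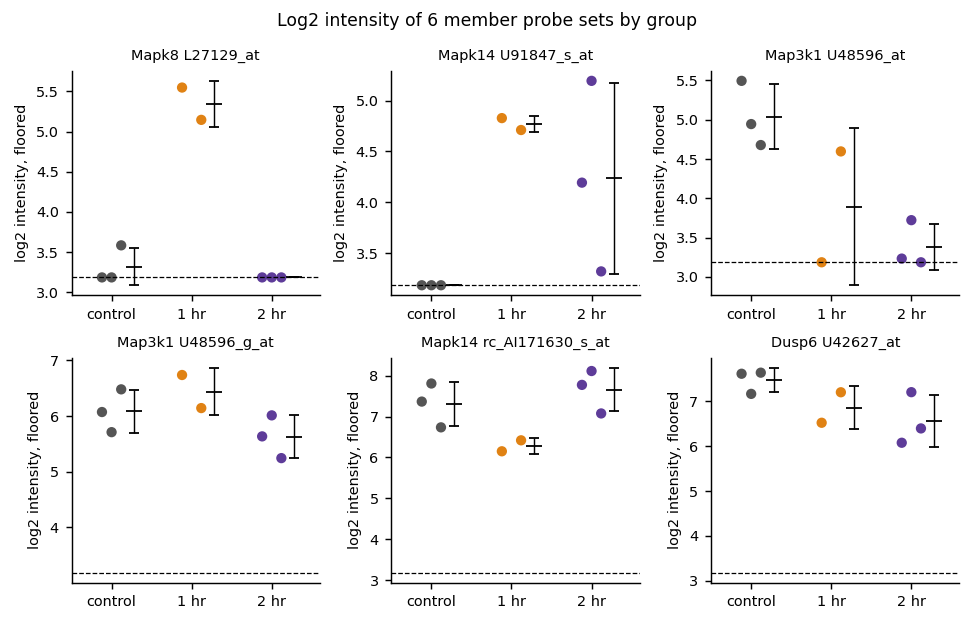
Floored log2 intensity of 6 probe sets by group, 1 point per array, with the group mean ± SD drawn beside the points and a dashed line at the floor (3.19); vertical scales differ between panels. The 1 hr points of Mapk8 (5.35 on average) stand above all other points of that panel, and the control points of Map3k1 U48596_at above all exposed ones.

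Mapk14 encodes p38 alpha, the stress-activated kinase that many inflammatory signals use. It had 6 probe sets. On U91847_s_at the controls read 3.7, 3.7 and 5.3, all near background, against 28.4 and 26.2 after 1 hr and 18.3, 36.6 and 10 after 2 hr. All 5 exposed arrays were above the 3 controls and above the floor, which makes the 1 hr group at least 3.00-fold and the 2 hr group at least 2.07-fold brighter. With the floor at 27.9 the log2 differences were 0.01 and 0.13, and with a pseudocount of 16 they were 1.10 and 0.84. Within the arrays of highest top values the 2 hr difference was at least 0.14 (1 against 1), and within the others at least 1.51 (2 against 2), since the controls were at the floor.

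The other 5 probe sets of Mapk14 did not share this pattern. The brightest, rc_AI137862_s_at, read 414.8, 404.1 and 291.3 in the controls, 331.6 and 263.1 after 1 hr, and 422.4, 530.9 and 285.7 after 2 hr, and its groups overlapped. On rc_AI171630_s_at the controls read 164.8, 223.9 and 106.5, the 1 hr arrays 71.0 and 85.5, and the 2 hr arrays 218.7, 276.7 and 134.8. Here both 1 hr arrays were below all the others, with a log2 difference of -1.02 (SE 0.41) from the controls, while the 2 hr arrays overlapped the controls at 0.35 (SE 0.37). The 2 hr group exceeded the 1 hr group by 1.37 (SE 0.41) on this probe set.

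Probe set U73142_g_at was also below all controls on both 1 hr arrays, at 292.3 and 291.3 against 323.5 to 506.9, and rc_AA924542_s_at was above all of them, at 179.8 and 155.8 against 123.1 to 149.1. The log2 differences were -0.40 (SE 0.36) and 0.32 (SE 0.31). U73142_at, from the same source sequence as U73142_g_at in the annotation, read 3.1 to 34.8 and differed by -0.86 (SE 0.58), a value of -0.36 without 1 hr replicate 2. At 1 hr 2 probe sets of Mapk14 were thus above and 4 below the controls on average, and at 2 hr 4 were above and 2 below. Correlations of log2 values among the 15 pairs of its probe sets over the 8 arrays ran from -0.09 to 0.88, with a median of 0.47, a description of readings from the same arrays.

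Map2k1 and Map2k2 encode MEK1 and MEK2, the kinases that phosphorylate ERK. All 3 probe sets of Map2k1 lay below the controls on average after 1 hr. The brightest, L04485mRNA_s_at, read 613.7, 922.6 and 537.4 in the controls, 341.7 and 485.5 after 1 hr, and 961.1, 688.5 and 532.2 after 2 hr. Both 1 hr arrays were under every control and every 2 hr array. The log2 difference at 1 hr was -0.72 (SE 0.37), and -0.34 with the arrays of low and high 5S reading as a block. At 2 hr it was 0.07 (SE 0.33).

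The other probe sets of Map2k1 overlapped between the groups, with 1 hr differences of -0.07 (SE 0.59) for D14591_s_at and -0.13 (SE 0.39) for rc_AI178835_at. D14591_s_at read 0.53 (SE 0.53) higher than controls at 2 hr, and 0.01 without control replicate 3, whose value of 106.0 was the lowest of the 8. The 3 probe sets of Map2k2 (rc_AA963674_g_at, rc_AA957896_s_at and L14936_at) stayed within 0.27 of the controls on average. In that order they read from 606.7 to 924.0, 271.9 to 701.4 and 167.1 to 340.1, the groups overlapped on each, and the log2 differences lay between 0.01 and 0.11 at 1 hr and between 0.11 and 0.27 at 2 hr, with standard errors of 0.28 to 0.38.

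Map3k1 encodes MEKK1, a kinase at the top of the cascade that feeds the JNK branch. Probe set U48596_at read 45.1, 30.8 and 25.6 in the controls, 5.2 and 24.2 after 1 hr, and 9.4, 13.2 and 6.3 after 2 hr. All exposed arrays were below all controls, and 1 hr replicate 1 and 2 hr replicate 3 were near background. The means were 5.04 ± 0.42 (SD, n = 3) in the controls, 3.89 ± 1.00 (SD, n = 2) at 1 hr and 3.38 ± 0.30 (SD, n = 3) at 2 hr, so the 2 hr group was 3.16-fold below the controls on the floored scale. The log2 difference was -1.66 (SE 0.44) at 2 hr and -1.15 (SE 0.49) at 1 hr. With the floor at 27.9 both read -0.28, and without 1 hr replicate 1 the 1 hr value was -0.44.

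U48596_g_at, from the same source sequence in the annotation, read 67.3, 52.4 and 89.3 in the controls, 106.8 and 70.7 after 1 hr, and 49.7, 64.6 and 37.9 after 2 hr. Its 2 hr arrays were below both 1 hr arrays but overlapped the controls, with log2 differences of 0.35 (SE 0.43) at 1 hr and -0.46 (SE 0.38) at 2 hr. Without the 3 arrays of highest top values the 2 hr value was -0.07. The third probe set, rc_AI102620_at, read 70.3, 76.3 and 39.6 in the controls, 42.7 and 54.3 after 1 hr, and 72.7, 57.1 and 20.4 after 2 hr. These groups overlapped, and the 2 hr difference of -0.44 (SE 0.53) turned to 0.11 without 2 hr replicate 3. The 3 probe sets therefore shared a lower average after 2 hr but differed in size, and at 1 hr 1 was above and 2 below the controls.

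Summed markers of meninges and fibroblasts (4 of 4 measured) were 890.5 to 1055 after 2 hr. In the controls they were 733.7, 813.5 and, on control replicate 3, 353.6. Those of microglia and macrophages (5 of 5 measured) were 598.9 to 1057 after 2 hr against 557 to 584.8 in the controls. None of the 4 meningeal markers was near background on any array, and 1 of the 5 microglial markers was on 2 arrays. Their part in the 2 hr readings of Map3k1, Mapk14 and Dusp6 was not tested.

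Dusp6 encodes a cytoplasmic phosphatase that removes phosphate from ERK and is itself an ERK target gene. Both of its probe sets lay below the controls on average in each exposed group. U42627_at read 195.5, 143.3 and 198.8 in the controls, 91.8 and 146.9 after 1 hr, and 67.4, 147.1 and 84.1 after 2 hr. Only control replicate 2, at 143.3, was lower than any exposed array, and 1 hr replicate 2 and 2 hr replicate 2 lay just above it. The log2 differences were -0.91 (SE 0.36) at 2 hr and -0.61 (SE 0.40) at 1 hr. The 2 hr value stayed between -1.24 and -0.67 over all alternative settings, while the 1 hr value was -0.27 without 1 hr replicate 1 and -0.19 without the 3 arrays of highest top values.

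X94185cds_s_at read 240.5, 78.4 and 69.7 in the controls, 25.3 and 141.2 after 1 hr, and 47.0, 127.0 and 77.8 after 2 hr. The groups overlapped, and control replicate 1 and 1 hr replicate 1 set most of the differences. These were -0.50 (SE 0.71) at 2 hr and -0.87 (SE 0.79) at 1 hr, and they turned to 0.07 without control replicate 1 and to 0.37 without 1 hr replicate 1. The correlation of the Dusp6 probe sets over the 8 arrays was 0.66.

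**Figure D3:**
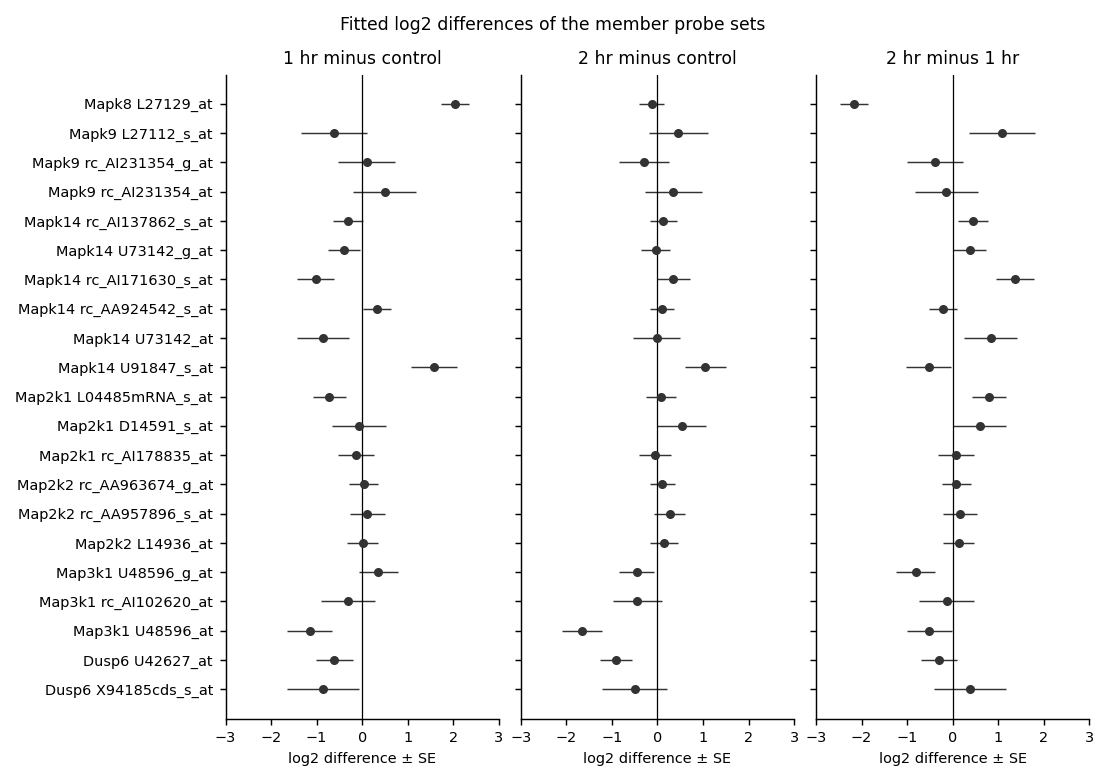
Fitted log2 differences of the 21 probe sets, with bars of 1 SE, for 1 hr against control, 2 hr against control and 2 hr against 1 hr. Mapk8 reads 2.03 in the left panel, -0.13 in the middle panel and -2.16 in the right panel, and Map3k1 U48596_at reads -1.66 in the middle panel.

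In limma's test over all 7770 probe sets, 0 of the 21 passed an adjusted p of 0.05 in any of 4 comparisons, and the share of all probe sets that passed was 0% in each. At an unadjusted p under 0.05 there were 3 of the 21 (14.3%) at 2 hr, beside 139 of all (1.79%), and 4 (19%) at 1 hr, beside 208 (2.68%). With the exposed groups averaged with equal weight there were 4 (19%), beside 172 of all (2.21%). For 2 hr against 1 hr there were 2 (9.52%), beside 215 of all (2.77%). The genes were chosen with these contrasts known, so nothing is read from these shares. The smallest adjusted p of any probe set was 0.492 at 2 hr, 0.684 at 1 hr, 0.989 for the averaged exposed groups and 0.411 between the exposed groups. The counts over all probe sets depended on the filter, and without it 4 probe sets passed at 1 hr and 4 for 2 hr against 1 hr. Mapk8 was among them, which is no test of it, since it was chosen with these values known and was above the floor on both 1 hr arrays and 1 other only.

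Groups that did not overlap were counted in the same way. After 1 hr 3 of the 21 (14.3%) were above all controls, where 7.54% of all probe sets were, and 4 (19.0%) were below all controls, where 5.11% were. After 2 hr 1 (4.76%) was above, where 2.9% of all probe sets were, and 1 (4.76%) was below, where 2.55% were. Across the 5 exposed arrays together, Mapk14 U91847_s_at was above and Map3k1 U48596_at below all controls, against backgrounds of 0.927% and 1%. Of the 2 hr arrays 2 of 21 probe sets (9.52%) were above and 2 below all 1 hr arrays, against 5.98% and 7.82%. Since the genes were chosen with these contrasts known, nothing is read from these counts. The median log2 difference of the 21 was 0.07 at 2 hr and -0.13 at 1 hr, beside 0.018 and 0.054 for all probe sets tested. Comparisons with the control share the same 3 arrays.

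The rest of the pathway was followed through 134 other genes, of which 66 had 114 probe sets tested. In limma's test 0 of the 114 passed, up or down, in any of the 4 comparisons, and at an unadjusted p under 0.05 there were 4 at 2 hr, 3 at 1 hr, 7 for the averaged exposed groups and 0 between the exposed groups. As shares of the 114 these were 3.51%, 2.63%, 6.14% and 0%, beside 1.79%, 2.68%, 2.21% and 2.77% of all probe sets. The 4 at 2 hr were Fos X03347cds_g_at and X06769cds_g_at, Gadd45a rc_AI070295_at and Mapk12 X96488cds_at. At 2 hr 61 (53.5%) averaged above the controls, beside 52.3% of all probe sets, with a median log2 difference of 0.057. At 1 hr 56 (49.1%) did, beside 55.8% of all, with a median of -0.005. After 2 hr 4 of the 114 (3.51%) were below all controls and 1 (0.877%) above, beside 2.55% and 2.9% of all. Across the exposed arrays together 2 (1.75%) were below all controls and 0 above, beside 1% and 0.927% of all. The list was fixed with earlier results of these data known, so nothing is read from these shares.

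Among the inputs to the cascade, 26 probe sets of Ras and Raf genes had a median log2 difference of 0.03 at 2 hr and 0.10 at 1 hr. Rasa1, a GTPase-activating protein for Ras, read -0.68 (SE 0.40) at 2 hr, or -0.43 without 2 hr replicate 2, which was near background at 1.5. Sos1, an exchange factor that activates Ras, read -0.68 (SE 0.49), or -0.34 without 2 hr replicate 3, which was near background at 2.8. On another probe set Sos1 read -0.08 (SE 0.31). The 22 probe sets of other MAP3K genes and of JNK and p38 inputs had medians of 0.12 and 0.06. Gadd45a, a stress-induced activator of the MAP3K tier, read 0.97 (SE 0.41) at 2 hr on rc_AI070295_at and 0.74 (SE 0.51) on rc_AI070295_g_at. It read -0.30 (SE 0.36) on L32591mRNA_g_at and -0.24 (SE 0.55) on L32591mRNA_at. On rc_AI070295_at control replicates 1 and 3, at 10 and 9.4, lay just above the floor. Cdc42, a small GTPase, read 0.72 (SE 0.48) on rc_AA925473_g_at, but 0.10 without control replicate 3. Its other probe sets read 0.80, 0.47 and -0.09, the last on rc_AI227887_g_at.

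The other MAP2K genes gave 3 probe sets with a median of 0.12 at 2 hr. Map2k5, the kinase of the ERK5 branch, read 0.30 (SE 0.26) on U37464_s_at and 0.08 (SE 0.48) on U37462_s_at. Map2k6, a p38 kinase, read 0.12 (SE 0.29). The other MAP kinases gave 7 probe sets with a median of 0.15. Mapk12, which encodes p38 gamma, read 19.6, 12.9 and 37.3 after 2 hr on X96488cds_at against 7.5, 6.5 and 9.2 in the controls. Since 2 of these controls were near background and the other just above it, no exact difference is given. On rc_AA849716_at it differed by 0.15 (SE 0.30). Mapk6, which encodes ERK3, read -0.53 (SE 0.44) on M64301_g_at, or -0.19 without 2 hr replicate 3. On M64301_at it read -0.19 (SE 0.62). The scaffold genes had a median of -0.04 over 8 probe sets, with Pea15, which binds ERK in the cytoplasm, at 0.43 (SE 0.30) on rc_AA894345_at and -0.09 (SE 0.30) on rc_AA891797_at. Mapk8ip2, a JNK scaffold, read 0.37 (SE 0.48), which turned to -0.19 without control replicate 3.

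Other MAP kinase phosphatases had a median of 0.08 over 16 probe sets at 2 hr. Dusp5, a nuclear ERK phosphatase, read 126.3, 91.5 and 88.3 in the controls, 56.4 and 70.3 after 1 hr, and 56.6, 67.4 and 66.2 after 2 hr, so that all exposed arrays were below all controls. Its log2 differences were -0.67 (SE 0.32) at 2 hr and -0.68 (SE 0.35) at 1 hr, and neither passed (limma, adjusted p = 1). Dusp7, a cytoplasmic ERK phosphatase, read 36.9, 179.9 and 38.8 after 2 hr against 40.1 to 43.3 in the controls. Its difference of 0.61 (SE 0.59) rested on 2 hr replicate 2 and turned to -0.14 without it. Of the kinases downstream, Mapkapk3 read 0.80 (SE 0.52) on rc_AI011376_at (0.26 without control replicate 3). It read 0.43 (SE 0.39) on rc_AI229421_at and 0.09 (SE 0.28) on rc_AA955477_g_at. On rc_AA955477_at it read -0.64 (SE 0.65), or -0.02 without 2 hr replicate 3. There 1 hr replicate 1 (4.5) and 2 hr replicate 3 (6.6) were near background. Mapkapk2 read -0.08 (SE 0.30).

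The nuclear and feedback targets had a median of -0.06 at 2 hr and -0.11 at 1 hr over 27 probe sets. Fos, an immediate early gene downstream of ERK, read 347.5, 179.5 and 137.7 in the controls on X03347cds_g_at, 79.7 and 145.0 after 1 hr, and 68.5, 76.2 and 91.5 after 2 hr. All 2 hr arrays were below all controls, and 1 hr replicate 2 was not. The 2 hr difference was -1.39 (SE 0.40), which did not pass (limma, adjusted p = 1, unadjusted p = 0.00596). The other probe sets of Fos, X06769cds_g_at and X06769cds_at, read -0.79 (SE 0.25) and -1.20 (SE 0.73) at 2 hr, and neither passed. Junb, another immediate early gene, read -0.66 (SE 0.39) at 2 hr and -0.36 (SE 0.43) at 1 hr on X54686cds_at. The 2 hr value was -0.19 without control replicate 1. On rc_AA891041_at Junb read -0.64 (SE 0.57) at 2 hr, and between -1.03 and -0.43 with single arrays left out. Its 1 hr difference there was -1.80 (SE 0.63), with 1 hr replicate 1 at 26.8 and 1 hr replicate 2 at 133.1.

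**Figure D4:**
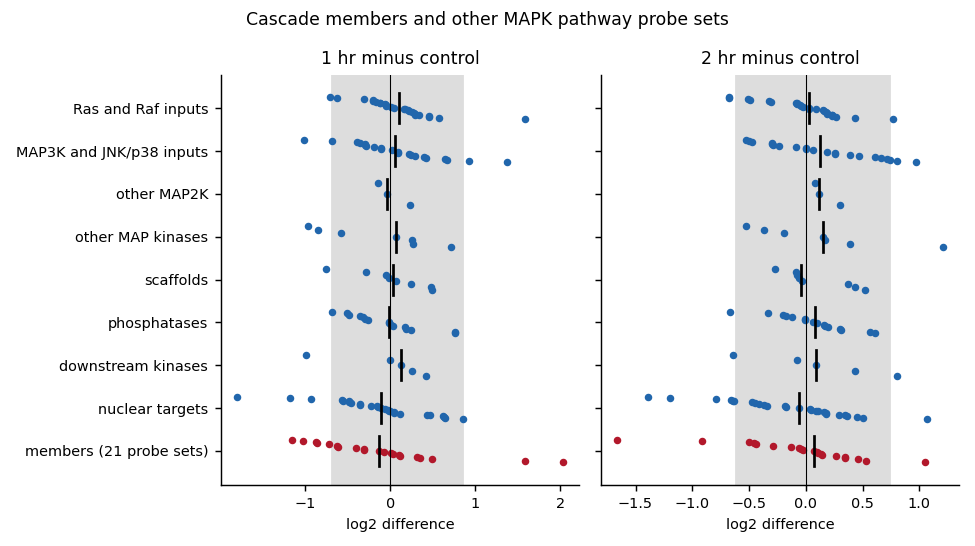
Log2 differences of the other MAPK pathway probe sets by role (blue) and of the 21 cascade probe sets (red) at 1 hr and 2 hr against control, with a black bar at each median and grey from the 5th to the 95th percentile of all probe sets (-0.68 to 0.86 at 1 hr and -0.62 to 0.74 at 2 hr). The medians of the roles lie close to 0, between -0.11 and 0.13 at 1 hr and between -0.06 and 0.15 at 2 hr.

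The patterns most like those of the brightest Mapk8 and Map3k1 probe sets were sought among 6272 other tested probe sets with 1 gene symbol, by Pearson's r of log2 values over the 8 arrays. For Mapk8 they were Tcf21 (r = 0.990), Or9s23b (r = 0.977) and Cyp11a1 (r = 0.972). Tcf21 was above the floor only on the 2 arrays of the 1 hr group, at 11.9 and 11.2, and Or9s23b on 4 arrays. The likenesses of Tcf21 and Or9s23b thus rest on readings near background. Cyp11a1 was above the floor on all 8 arrays, at 38.1 and 22.5 after 1 hr and at 9.4 to 14 on the others. For U48596_g_at of Map3k1 they were Cd55 (r = 0.959), Psme2 (r = 0.955) and Mtr (r = 0.952). Psme2 read 166.7, 86.6 and 176.5 in the controls, 196 and 144.7 after 1 hr, and 87.3, 118.7 and 54.5 after 2 hr. With 8 arrays, 21 probe sets had an r over 0.9 with Mapk8 and 17 with Map3k1.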

How the data were processed

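The deposited table held a linear intensity for each of 8799 probe sets on each array. The scaling by the authors is not stated in the labels. Trimmed means (2%) ran from 150.17 to 150.32 over the arrays, so no further scaling was applied. The 59 control probe sets were left out. Values under 9.1 (the 20th percentile) were raised to it and log2 was taken. Probe sets above it on at least 2 arrays were tested, which removed 970.

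Names came from the platform's annotation (7006 probe sets with 1 symbol, 308 with several, 1426 with none), with symbols updated through gene numbers to RefSeq GRCr8 for 6985.

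All 8 arrays were fitted with limma 3.58.1 in R 4.3.3 (1 mean per group, intensity trend, two-sided, Benjamini-Hochberg over 7770 probe sets, threshold 0.05). The steps were tested on simulated data with independent noise and with differences larger than those of any cascade probe set. That test does not show how often differences of the sizes seen here would pass. The genes, lists and settings were chosen with earlier results of these data known. The text names all cascade probe sets, up to 2 other genes per role by unadjusted p at 2 hr, and the 3 probe sets most like Mapk8 and Map3k1. A sum of marker intensities took the brightest probe set of each gene. The number of arrays limits the precision.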

Additional observations from a re-analysis of the deposited data

Results flagged for a closer look

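On 2 probe sets every 1 hr array was above the mean of the controls and every 2 hr array below it on the floored log2 scale. They are the 2 of the 21 (9.52%) on which all 2 hr arrays were below all 1 hr arrays, as on 7.82% of all probe sets. The share of all probe sets that also lay on both sides of the control mean was not counted, so nothing is read from this number. For Mapk8 (L27129_at) the 2 hr group differed from the 1 hr group by -2.16, but its place below the controls was set by the floor, at which all 2 hr arrays lay. As deposited, 2 hr replicate 2 read 8.6, above the control mean of 7.33. For Map3k1 (U48596_g_at) the difference was -0.81, and no array was near background. In limma's fit over all probe sets neither passed an adjusted p of 0.05 for 2 hr against 1 hr, but because the genes were chosen with these values known that is a description, and nothing is read from it as a test.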

How the results depend on the processing

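The 4 counts of probe sets that passed limma's test, all 0, and those of the other pathway genes were recomputed under 21 alternative settings: a floor at the 5th or at the 40th percentile, a pseudocount, median centring, quantile normalization, a strict filter or none, no intensity trend, only the groups compared, 3 blocks, the fit without the 3 arrays of highest top values, and each array left out. All stayed at 0 except without the filter, where 4 probe sets passed at 1 hr and 4 for 2 hr against 1 hr. In both they were Mapk8, Tcf21, Ldhc and 1 probe set annotated to several keratin genes. For Mapk8, chosen with its values known and at the floor on 5 of 8 arrays, this is no test. This setting added 970 probe sets that were above the floor on at most 1 array, and the cause was not tested. With the replicate number as a block, 0 probe sets passed in each comparison and Mapk8 differed by 2.10 at 1 hr. Deviations of same-numbered arrays correlated from -0.331 to 0.286 (4 of 7 pairs over 0.1), and those of other-numbered arrays from -0.362 to 0.397. Deviations of the 2 arrays of the 1 hr group mirror each other, so these values cannot decide whether the numbers mark pairs. The main fit used no pairs.

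Of the fitted differences, 6 of 21 kept their sign under every setting at 2 hr, 11 at 1 hr, 10 for the averaged exposed groups and 9 between the exposed groups. Values near background limit Mapk8, Map3k1 U48596_at and Mapk14 U91847_s_at the most.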
